A study of Mus musculus with 2 samples.

Results

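The genes described here encode the proteins of the cytosolic ribosome of the mouse. They were taken from the deposited table by symbol: Rps or Rpl with a number and an optional letter, the stalk genes Rplp0, Rplp1 and Rplp2, and Rpsa and Fau. This gave 91 rows and, with the highest-mean row kept for each symbol, 85 genes of 20722, of which 34 belong to the small and 51 to the large subunit. RNA of villi from the small intestine of C57BL/6 mice was sequenced, with 1 library per genotype. The control genotype was Rosa26-CreERT2 Cdkn2a-/-, and the other library was labelled Rosa26-CreERT2 Cdkn2a-/- Ring1a-/- Ring1bf/f (double knockout, dKO). Both genotypes lack Cdkn2a and carry a tamoxifen-inducible Cre at the ubiquitously expressed Rosa26 locus, so recombination is not limited to the epithelium. Both were taken 6 days after tamoxifen, given in 3 injections. No source used here gives the age or the number of animals behind a library. There was 1 library per genotype, so the differences have no replicate check and are given with counting error alone.

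The ribosome is made of a small subunit, which reads the messenger RNA, and a large subunit, which joins the amino acids. Nearly all ribosomal proteins are needed in equal numbers, so their genes are usually expressed together and at high levels. Their messenger RNAs begin with a run of pyrimidines, the 5′ terminal oligopyrimidine (TOP) tract, through which mTOR and LARP1 control their translation. In the intestine, ribosome production is greatest in the dividing cells of the crypts, from which the villus cells arise.

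Pyrimidine runs near the annotated start and a short coding sequence are shown first, because the runs were more frequent in member promoters than in all promoters and the members differ in coding length. Of the 85 members 64 had an entry in a RefSeq promoter table (GRCm38.p6), which runs from 250 bases before to 50 after the annotated start. A run of at least 8 pyrimidines (C or T) on the gene's strand, ending in the window from 20 bases before to 50 after the start, was present in 53 of 76 member promoters (69.7%), against 27.9% of all 32851 promoters. The letters CGGAAG, the core recognised by ETS-family factors, were found on either strand in 59.2% of member promoters and 16.9% of all, and TATAAA in 9.21% and 13.6%. On the reverse strand CGGAAG reads CTTCCG, which can overlap a pyrimidine run. Windows of 30 bases are shown for the 4 members with the highest and the 4 with the lowest log2 ratio among those with a single promoter entry and such a run, with the run in capitals.
Rpl22l1, chr3:28805499-28805528, plus strand: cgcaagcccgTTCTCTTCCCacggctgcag
Rpl15, chr14:18270967-18270996, minus strand: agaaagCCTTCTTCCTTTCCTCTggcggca
Rpl14, chr9:120571501-120571530, plus strand: agggcgggCCCTCTCTCTTCTCgctgagcg
Rpl4, chr9:64173406-64173435, plus strand: agcgtggCCTTCTCCTCTCCCCgtcatggt
Rpl41, chr10:128549119-128549148, minus strand: cgccattaaatagcagtaggCCTCCCTCTC
Rps12, chr10:23787181-23787210, minus strand: caccgccggCCTTTTCCCCTgccgccgccg
Rplp2, chr7:141447636-141447665, plus strand: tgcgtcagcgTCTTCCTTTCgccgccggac
Rps23, chr13:90923142-90923171, plus strand: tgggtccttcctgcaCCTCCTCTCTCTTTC
The run in capitals began within 10 bases of the annotated start in Rpl22l1, Rpl15, Rpl14, Rplp2 and Rps12. It began at base 27 after the start in Rpl4, 36 in Rps23 and 41 in Rpl41, so not every run shown is a 5′ terminal tract. The Rps23 window also holds a shorter run of 8 pyrimidines, left in lower case, before the one in capitals. In Rpl41 and Rps23 the run reached the end of the table's window, and its length there is a minimum. Both Rpl22l1, near the top of the order, and Rplp2, near its bottom, had runs of 10 bases. Among the 47 members with a single entry that passed the filter on low values described below, the median log2 ratio was 0.86 for the 35 with a run and 0.76 for the 12 without.

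The smallest member is Rpl41, whose coding sequence of 78 bases (GENCODE M21, chromosome 10) is shown whole because this gene had the lowest ratio of those above the filter.
Rpl41: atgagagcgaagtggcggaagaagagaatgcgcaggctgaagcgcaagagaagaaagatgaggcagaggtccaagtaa

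The control library held 775827 recovered reads and the dKO-labelled library 1058196 over all transcripts. Ring1 (Ring1a) had 10 and 10 reads and Rnf2 (Ring1b) 59 and 82, so neither targeted gene was lower beyond counting error, and the second library is called dKO-labelled throughout. Reads were summed over each transcript, so the deleted exons cannot be read from them. Enterocyte markers were present in both libraries, with 7454 and 10001 reads over 8 genes. Single markers differed: Sis had 37 and 357 reads and Lct 184 and 847, while Apoa1 had 1552 and 1560 and Apoa4 2529 and 2618. After scaling 6 of the 8 were higher in the dKO-labelled library, and Apoa1 and Apoa4 were lower. Xist had 80 and 1 reads and the Y-linked Ddx3y 0 and 131, so sex and genotype cannot be told apart. The nuclear RNA Malat1 had 6968 and 1211 reads.

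Ribosomal protein messages made up a larger share of the dKO-labelled library. They took 19074 control reads, 2.46% of all reads (95% exact Clopper-Pearson interval 2.42 to 2.49), and 37374 in the dKO-labelled library, 3.53% (3.50 to 3.57). This share was 1.44 times as large and does not depend on the scaling between libraries. Small-subunit genes took 1.04% and 1.46% of reads, and large-subunit genes 1.42% and 2.07%, so both subunits had the larger share in the dKO-labelled library. Intervals here and below cover counting error only. In bulk tissue a change in the make-up of cells and a change of RNA per cell cannot be told apart.

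**Figure D1:**
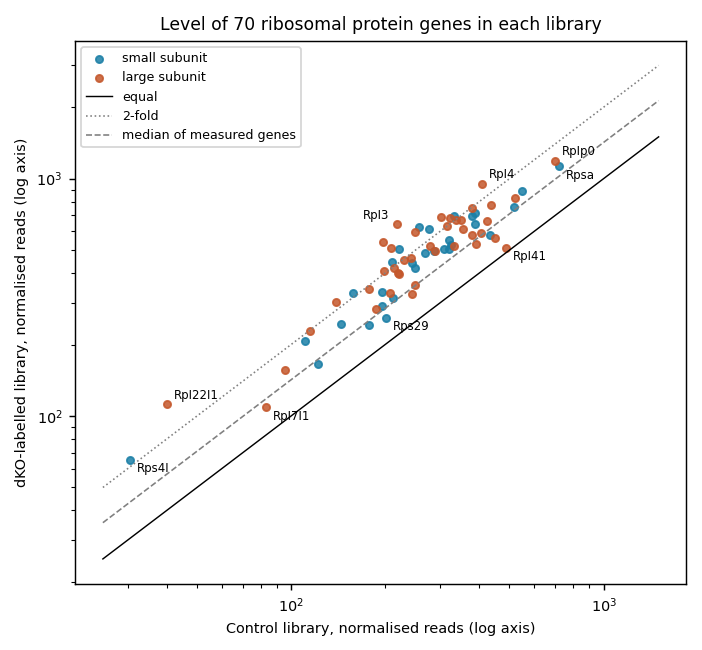
Normalised reads of the 70 measured ribosomal protein genes in the control (x axis, log) and the dKO-labelled library (y axis, log), 1 point per gene, small subunit in blue and large subunit in orange. All 70 points lie above the line of equal level, and Rpl41 lies closest to it.

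Of the 85 genes 70 were measured, that is, had a mean of at least 20 normalised reads over both libraries. Their normalised reads ran from 30.5 to 720.4 in the control, with a median of 262, and from 65.5 to 1189 in the dKO-labelled library, with a median of 507. All 70 had the higher normalised value in the dKO-labelled library, where 75.4% of all 6001 measured genes did. The log2 ratio of dKO-labelled over control, with 1 added to each normalised value, ran from 0.07 to 1.56 with a median of 0.81. Over all measured genes the median was 0.51, and 61 of the 70 members lay above it (background 50.0%).

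At least 2-fold higher were 18 of the 70 members (background 26.2% of all measured genes), and 0 were at least 2-fold lower (background 4.18%). The share past 2-fold was therefore near that of all genes, while the median was 0.30 above theirs. That background includes many genes of lower counts, with 33.9% at least 2-fold higher between 20 and 100 mean reads. Between 100 and 1000 mean reads 16 of 67 members were, against 15.1% of 2355 genes. These counts depended on the scaling between libraries. Scaled to total reads, 3 members were at least 2-fold higher and 0 lower (backgrounds 16.3% and 7.34%). Scaled by TMM, 1 was higher and 0 lower (11.2% and 11.0%), and by the upper quartile 0 were higher and 0 lower (8.06% and 15.3%). Placing the median of measured genes at 0 left 1 member, Rpl3, at least 2-fold higher and 0 lower (11.8% and 10.4%).

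Other rules for calling members gave other counts in the same direction. At 1.5-fold 56 members were higher and 0 lower (backgrounds 45.9% and 8.78%), and the counting interval lay wholly beyond 2-fold for 6 higher and 0 lower members (10.4% and 1.73%). An exact binomial test of the recovered reads, Benjamini-Hochberg adjusted over all measured genes, called 68 members higher and 0 lower (50.1% and 11.6%). It compares these libraries, not the genotypes. Ratios of single members were read with a median half-width of the counting interval of 0.22 on the log2 scale, and the standard deviation of the log2 ratio over the 70 members was 0.29. The interval lay wholly above the median ratio of measured genes for 44 members (background 26.0%). It lay wholly below that ratio for 2, Rpl41 and Rplp1 (background 28.1%). Calls by interval or by test depend on read depth, and the backgrounds hold many genes of fewer reads. Means between 20 and 100 were found for 3587 measured genes but only 3 members. In the authors' deposited table the smallest unadjusted p-value of a member was 0.239, for Rpl3.

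The small-subunit genes had log2 ratios of 0.36 to 1.28 with a median of 0.77 over 30 measured genes, with 7 at least 2-fold higher. The large-subunit genes had log2 ratios of 0.07 to 1.56 with a median of 0.88 over 40, with 11 at least 2-fold higher. Both shares past 2-fold were near the background of 26.2%, which includes many genes of lower counts, as given above. The medians were 0.12 apart, less than the standard deviation within either subunit, 0.24 for small and 0.32 for large. These standard deviations describe single genes and not the uncertainty of a median. Whether the subunits differ was not tested. They also differ in coding length, with medians of 456 bases for small and 514.5 for large among measured members. The part of coding length in the distance of 0.12 was not tested. In reads, small-subunit genes were 1.72-fold higher (1.68 to 1.77) and large-subunit genes 1.80-fold higher (1.76 to 1.84), with intervals that overlapped at their ends.

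**Figure D2:**
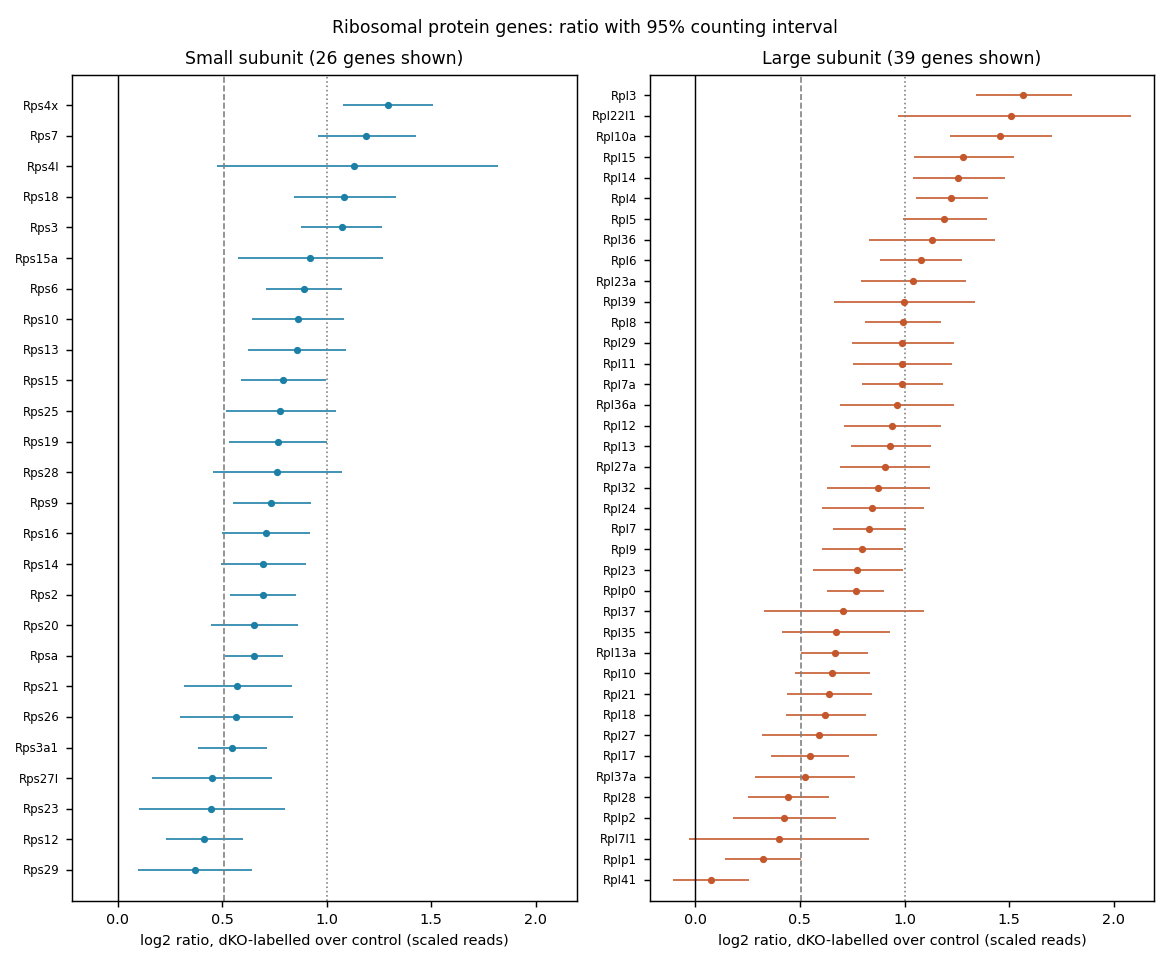
The log2 ratio of scaled reads (x axis) of 65 measured genes, 26 of the small (left) and 39 of the large subunit (right), with 95% counting intervals as bars, a solid line at 0, a dashed line at the median of all measured genes and a dotted line at 2-fold. Values run from Rps29 to Rps4x and from Rpl41 to Rpl3, and the large subunit extends past the small one at both ends. Rpl41, at 0.07, lies apart from the next large-subunit gene, Rplp1, at 0.32.

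Members placed near the catalytic centre and the exit tunnel differed from one another. Rpl3, which lies next to the peptidyl transferase centre, had 218 normalised reads in the control, against 645 in the dKO-labelled library, and its ratio of scaled reads was 2.97 (2.53 to 3.48). Rpl4, which reaches into the exit tunnel, had 409 and 953 (2.34-fold, 2.08 to 2.63). Rpl10, which binds late in assembly near the same centre, had 422 and 664 (1.57-fold, 1.39 to 1.78), so its interval did not overlap those of Rpl3 and Rpl4, and its log2 ratio of 0.65 was below the members' median.

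Rpl5 and Rpl11 form with 5S ribosomal RNA a particle that can bind and inhibit Mdm2. Rpl5 had 302 and 688 normalised reads (2.28-fold, 1.99 to 2.63). Rpl11 had 230 and 455 (1.99-fold, 1.69 to 2.34), and the intervals of the 2 genes overlapped.

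The acidic stalk, which recruits translation factors, had 2 low members of 3. Its base Rplp0 was the member with the highest mean, with 699 and 1189 normalised reads (1.70-fold, 1.55 to 1.87). The stalk proteins Rplp1, with 450 and 562 (1.25-fold, 1.10 to 1.42), and Rplp2, with 243 and 326 (1.34-fold, 1.13 to 1.59), were both below the median of measured genes. The interval of Rplp0 overlapped that of Rplp2 slightly and not that of Rplp1.

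Of the 8 genes at the rim of the peptide exit tunnel 4 were measured, without Rpl19, Rpl22, Rpl26 and Rpl31, with log2 ratios between 0.54 (Rpl17) and 1.03 (Rpl23a). Rpl39, a very small protein of that rim, had 115 and 228 normalised reads (1.99-fold, 1.58 to 2.53). Rpl35 had 207 and 329 (1.59-fold, 1.33 to 1.91).

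In the small subunit the highest was Rps4x, an X-linked gene, with 257 and 628 normalised reads (2.45-fold, 2.11 to 2.85). Rps7 had 221 and 503 (2.28-fold, 1.94 to 2.69). Rps3, at the messenger RNA entry channel, had 332 and 696 (2.10-fold, 1.84 to 2.41). Rps6, the target of S6 kinase, lay near the middle, with 387 and 716 (1.85-fold, 1.63 to 2.11).

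The small-subunit genes with the highest means were Rpsa, Rps2 and Rps3a1. Rpsa, also known as the laminin receptor, had 720.4 and 1132 normalised reads (1.57-fold, 1.43 to 1.73). Rps2, at the entry channel beside Rps3, had 549.8 and 889 (1.62-fold, 1.45 to 1.80), and Rps3a1 518 and 758 (1.46-fold, 1.31 to 1.64). All of them were higher by less than 2-fold. The 4 genes of the exit side and platform, Rps14, Rps26, Rps28 and Rpsa, lay close together, between 0.56 and 0.75 on the log2 scale.

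The lowest members of the small subunit were Rps29, with 201 and 259 normalised reads (1.29-fold, 1.07 to 1.56), and Rps12, with 434 and 578 (1.33-fold, 1.17 to 1.51). Rpl41 had 487 and 512 normalised reads, a ratio of 1.05 (0.927 to 1.19), and was with Rpl7l1 the only measured member whose counting interval reached 1. In reads before scaling Rpl41 had 461 and 538. Per kilobase of transcript it had the highest level of all measured members in both libraries, 1114 normalised reads in the control against 1171 in the dKO-labelled library, where Rplp1 followed with 901 and 1126. The order of members by level was largely kept, with a Spearman correlation between libraries of 0.88 across the 70 genes (0.94 for small and 0.81 for large subunit). The Pearson correlation of log2 levels was 0.93 (0.96 for small and 0.91 for large subunit). Genes are not independent replicates.

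Other members of the highest 6 were Rpl10a, with 197 and 539 normalised reads (2.75-fold, 2.32 to 3.26), Rpl15, with 210 and 508 (2.43-fold, 2.06 to 2.88), Rpl14, with 249.6 and 595 (2.39-fold, 2.06 to 2.79), and the paralog Rpl22l1. Rpl13a, which has a role in translational silencing during inflammation, had 522 and 828 (1.59-fold, 1.42 to 1.77). Reads of ribosomal protein genes can be shared with their many processed pseudogenes, and no source used here says how such reads were handled, so single values are uncertain to that extent.

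Other members at least 2-fold higher were Rps18, with 211 and 445 normalised reads, Rpl36, with 139 and 303, and Rpl6, with 323 and 682. Many members lay close to the 2-fold boundary. Rpl23a was inside it (log2 ratio 1.03), and Rpl8 (0.99), Rpl7a, Rpl29, Rpl39 and Rpl11 (0.98 each) were just outside, with overlapping intervals. Rpl8, a core protein near the catalytic centre, had 378 and 751 normalised reads (1.99-fold, 1.75 to 2.26).

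Genes at the middle of the range differed little from one another. Rps19, mutated most often in Diamond-Blackfan anaemia, had 249 and 422 normalised reads (1.70-fold, 1.45 to 2.00). Rps20, Rps16, Rps9, Rps25, Rps15, Rps13 and Rps10 had log2 ratios from 0.65 to 0.86. Rpl21, Rpl37, Rpl23, Rpl9, Rpl24, Rpl32, Rpl27a, Rpl13 and Rpl12 had 0.64 to 0.94. Rpl24, which forms a bridge to the small subunit, had 221 and 397 normalised reads (1.80-fold, 1.52 to 2.13), an interval overlapping that of Rps19. Lower were Rps21, Rpl27, Rpl18 and Rpl37a, from 0.52 to 0.62, and Rpl28, with 390 and 529.8 (1.36-fold, 1.19 to 1.56).

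The ratio depended little on the count level within the members. The Spearman correlation between the log2 ratio and the level was -0.25 with the control level, 0.16 with the dKO-labelled level and 0.00 with their mean (-0.0015 before rounding) across 70 genes. The ratio contains both levels, so their counting errors enter these values with opposite signs. Over all measured genes the Spearman correlation was -0.53 with the control level and -0.25 with the mean. The ranges of level are unlike, with 67 of the 70 members between 100 and 1000 mean reads and 3587 of 6001 genes between 20 and 100. The part of this range in the difference was not tested. By subunit the Spearman correlation with the control level was -0.15 for small and -0.35 for large.

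Members stayed near the same ratio where other genes were lower. Between 200 and 400 mean normalised reads, 27 members had a median log2 ratio of 0.85, against 0.33 over 810 genes, and all 27 lay above the latter. Between 400 and 1000 reads, 35 members had a median of 0.79 and 34 lay above the median of 0.17 over 372 genes, the exception being Rpl41. Between 100 and 200 reads, 5 members had a median of 0.75 and the 1173 genes 0.40. Only Rps4l, Rpl22l1 and Rpl7l1 lay between 20 and 100 reads, where the median of 3587 genes was 0.67, and 0 members lay above 1000. Over the whole range from 100 to 1000, 16 of 67 members were at least 2-fold higher, where 15.1% of the 2355 genes of that range were.

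**Figure D3:**
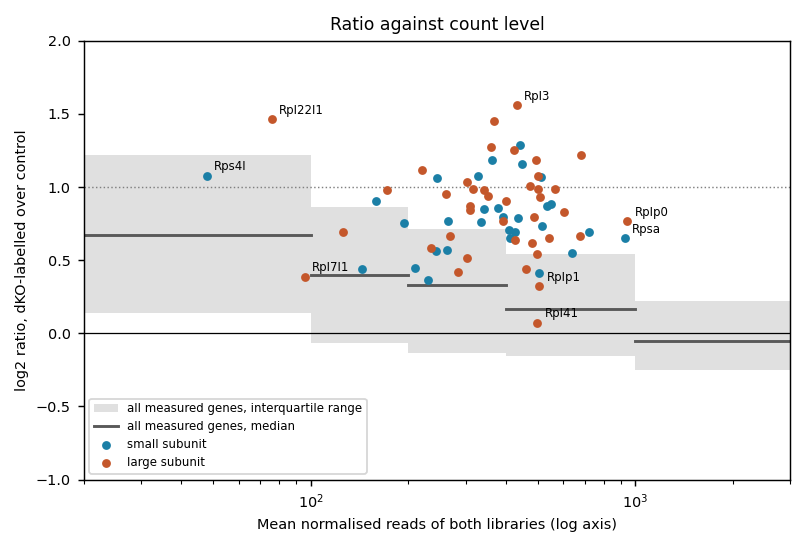
The log2 ratio (y axis) of each measured member against its mean normalised reads (x axis, log), with the median (line) and interquartile range (grey) of all measured genes in 5 ranges of the mean. The median of all genes falls from 0.67 to -0.05 across the ranges, while members between 200 and 1000 reads keep medians of 0.85 and 0.79.

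Members with longer coding sequences had higher ratios. The Spearman correlation between log2 ratio and coding length was 0.42 across the 69 measured members with a coding length, and it was 0.43 in the small and 0.40 in the large subunit. The 35 members at or under the median coding length of 477 bases had a median log2 ratio of 0.75 and 5 were at least 2-fold higher, while the 34 longer ones had 0.93 and 12. Of all measured genes in the length ranges that hold members, 26.9% to 30.01% were at least 2-fold higher. The 8 members under 300 bases had a median of 0.54 and 0 at least 2-fold higher. Of the members 3 had 900 bases or more, Rplp0, Rpl3 and Rpl4, with log2 ratios of 0.76, 1.56 and 1.22.

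Over all 5872 measured genes with a coding length the Spearman correlation was -0.18, with medians of 0.62 under 300 bases and 0.16 from 3000 bases. In the ranges under 1500 bases, which hold all the members, these medians lay between 0.54 and 0.64. A positive value was not particular to the members, as it was 0.27 over 65 measured mitochondrial ribosomal protein genes. The Spearman correlation was 0.27 over the 58 members of 300 to 900 bases, against 0.42 with the shortest and longest genes, and 0.40 without Rpl41 alone. With whole transcript length, in which long annotated 3′ ends such as that of Rps15a (5179 bases) enter, the Spearman correlation was 0.18. These are descriptions across genes that share 2 libraries. Depth, Malat1 and the markers below differ between the libraries too, and their part in this relation was not tested.

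**Figure D4:**
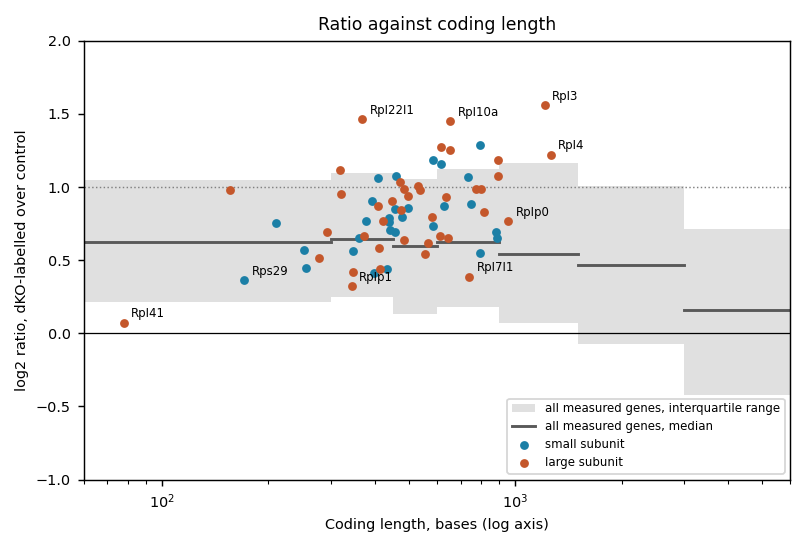
The log2 ratio (y axis) of each measured member against its coding length in bases (x axis, log), with the median (line) and interquartile range (grey) of all measured genes in 7 ranges of length. Members rise from Rpl41 at 0.07 to Rpl3 at 1.56. The medians of all genes run from 0.62 in the shortest to 0.16 in the longest range, and lie between 0.54 and 0.64 under 1500 bases.

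Paralog-type members, genes named as a copy of another ribosomal protein gene, were 7, of which 4 were measured. Rpl22l1, a paralog that can replace Rpl22, had 40.0 and 112 normalised reads (2.85-fold, 1.95 to 4.24). Rpl22 itself had 0 reads in both libraries, which is no measure of its expression, as described below for the members under the filter. Rps27l, a p53-inducible copy of Rps27, had 177 and 241 (1.37-fold, 1.12 to 1.67). Rpl7l1, a nucleolar relative of Rpl7, had 83.2 and 109 (1.32-fold, 0.979 to 1.78), and Rpl7 itself 435 and 773 (1.78-fold, 1.58 to 2.01). Rps4l, a transcribed pseudogene in the RefSeq table, had 30.5 and 65.5 (2.19-fold, 1.39 to 3.53), near the 2.45-fold of Rps4x, whose reads it can share.

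The tissue-restricted copies Rpl3l (muscle), Rpl10l and Rpl39l (testis) had 0 or 1 read in each library. Rpl39 and Rpl39l are shown because they share 133 of 156 coding bases (85.3%) and yet took 108 and 239 reads against 0 and 1. Capitals mark the 23 bases that differ (GENCODE M21 coding sequences).
Rpl39: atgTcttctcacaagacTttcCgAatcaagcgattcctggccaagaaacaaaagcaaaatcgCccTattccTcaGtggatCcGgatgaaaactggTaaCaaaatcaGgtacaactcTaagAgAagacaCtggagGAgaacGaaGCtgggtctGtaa
Rpl39l: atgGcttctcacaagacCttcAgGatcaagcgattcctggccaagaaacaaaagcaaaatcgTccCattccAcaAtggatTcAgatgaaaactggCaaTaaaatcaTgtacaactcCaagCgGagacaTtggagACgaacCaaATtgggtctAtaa
Coding identity was 84.8% for Rpl10 and Rpl10l, 73.3% for Rpl3 and Rpl3l, 67.5% for Rpl22 and Rpl22l1, and 54.5% for Rpl7 and Rpl7l1.

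The 15 members under the filter held 28 control and 71 dKO-labelled reads together, with means of at most 14.8 normalised reads, while the lowest measured mean was 48.0. Only 3 of them were paralog-type. The others were genes that every cell uses: Fau (2 and 9 reads), Rps27a (0 and 5), Rps24 (1 and 3), Rps27 (3 and 1), Rpl19 (8 and 18), Rpl30 (2 and 6), Rpl31 (2 and 2), Rpl34 (1 and 6), Rpl35a (0 and 1), Rpl38 (9 and 19), and Rpl22 and Rpl26 with 0 reads in both. Fau and Rps27a encode fusions of a ubiquitin-type domain with Rps30 and Rps27a, and Rpl38 is known for its effect on the translation of Hox messages. A count this low for such genes is therefore no measure of their expression.

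Several rows in the table belonged to 5 members, Fau, Rpl30, Rpl34, Rpl35a and Rpl3l, and none of them was measured. Over all genes, 14.5% of 1171 symbols with several rows were measured and 29.8% of 19551 with 1 row. Of members with 1 RefSeq transcript 59 of 62 were measured, and of those with several 11 of 23. The shares over all genes were 29.5% of 13379 with 1 transcript and 28.5% of 7055 with several. The row kept for Rps27 is a noncoding RefSeq record. No source used here says how reads were assigned to overlapping transcripts, and its part in these counts was not tested.

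X-linked members were Rpl10, Rpl36a, Rpl39 and Rps4x, with log2 ratios of 0.65, 0.95, 0.98 and 1.28 and a median of 0.97, against 0.79 for the 66 autosomal members measured. Over all 154 measured X-linked genes the median was 0.58. Because Xist differed as given above, sex and genotype cannot be told apart for these genes in particular.

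Components of the ribosome that the symbols above leave out were at a similar level. Gnb2l1, encoding the scaffold RACK1 on the small subunit, had 362 and 878 reads (2.19-fold, 1.93 to 2.48) and Rpl36al, a copy of Rpl36a, 182 and 332 (1.64-fold, 1.37 to 1.98). Of the 3 genes measured in this list 1 was at least 2-fold higher.

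The counts of related lists below stand beside the same background, 26.2% of measured genes at least 2-fold higher and 4.18% lower, with 33.9% higher between 20 and 100 mean reads. Other messages with a TOP tract had a median log2 ratio of 1.14 over 10 measured genes of 13, with 6 at least 2-fold higher and 0 lower. Elongation factor Eef2 had 623 and 1840 reads (2.66-fold, 2.43 to 2.92), and the initiation factor subunits Eif3f, Eif3e and Eif3h were 2.67-, 2.66- and 2.61-fold higher. Mitochondrial ribosomal protein genes had a median of 1.17 over 65 measured of 76, with 39 at least 2-fold higher and 0 lower. Mrps24 (14 and 90 reads), Mrpl11 (18 and 108), Mrpl47 (6 and 40) and Mrps26 (15 and 86) were the highest of them. Their level was lower than that of the cytosolic genes, with 0.319% and 0.558% of reads. Lower counts had higher ratios over all genes, as described above, with a median of 0.67 between 20 and 100 mean reads. The part of count level in the ratios of the mitochondrial list was not tested.

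Genes that make and control ribosomes were more scattered than the members, and many had few reads with wide counting intervals. The part of counting error in this scatter was not tested. Ribosome biogenesis factors had a median of 0.76 over 14 measured of 23, with 5 at least 2-fold higher and 0 lower. Nop56, of the box C/D particles that methylate ribosomal RNA, had 12 and 47 reads (3.53-fold, 1.84 to 7.31), and the pseudouridine synthase Dkc1 16 and 49 (2.76-fold, 1.54 to 5.20), with Tsr1 at 11 and 36 and Bysl at 11 and 32. The genes of this list with most reads were near equal, Eif6 with 860 and 890 (0.93-fold, 0.85 to 1.03) and Sbds with 317 and 366 (1.04-fold, 0.89 to 1.21). All 23 genes took 0.208% of control and 0.209% of dKO-labelled reads. RNA polymerase I and its factors had a median of 0.51 over 6 measured of 13, with 2 at least 2-fold higher, Rrn3 (9 and 38 reads) and Polr1c (9 and 37). Polr1d had 74 and 161 reads and Ttf1 28 and 21.

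Among regulators of ribosomal protein synthesis the median was 0.73 over 11 measured of 14, with 1 at least 2-fold higher on the log2 ratio with 1 added. This was Larp1, the TOP-binding repressor, with 57 and 131 reads (2.07-fold, 1.51 to 2.88). The S6 kinase gene Rps6kb1, with 15 and 35 reads, was 2.10-fold higher in scaled reads (1.12 to 4.15), with a log2 ratio of 0.98. Next were the other S6 kinase gene Rps6kb2 (21 and 46) and the translation repressor Eif4ebp2 (62 and 137). Of the 11 genes 9 had a log2 ratio above 0. Below 0 were Mtor, with 30 and 23 reads (0.69-fold, 0.38 to 1.23), and Eif4ebp1, with 233 and 234 (0.91-fold, 0.75 to 1.09). The genes of nucleolar stress and p53 had a median of 0.44 over 5 measured of 8, with 1 at least 2-fold higher. This was Bax, a promoter of cell death, with 55 and 151 reads (2.47-fold, 1.81 to 3.43). Ccng1 had 180 and 394 reads, the cell cycle inhibitor Cdkn1a 16 and 25 and Zmat3 67 and 82.

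**Figure D5:**
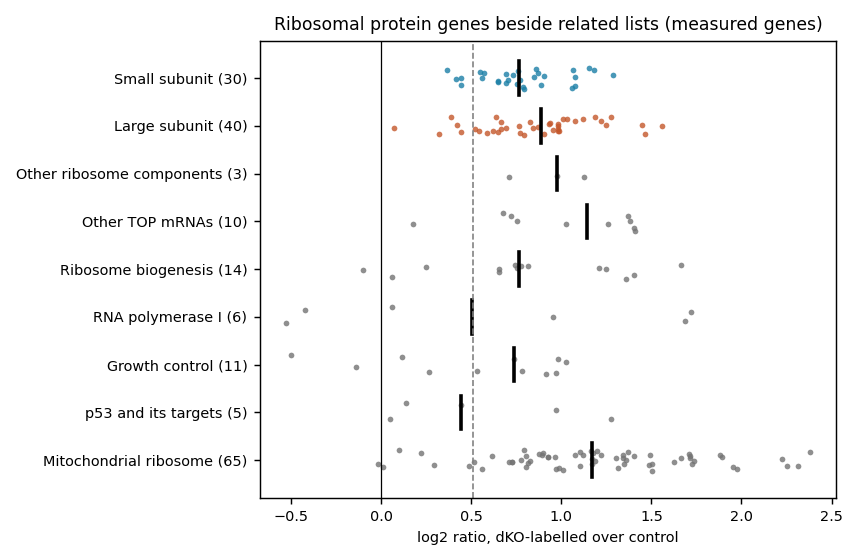
The log2 ratio (x axis) of each measured gene of the small and large subunit and of 7 related lists (rows, with the number of genes), with black bars at the medians, a solid line at 0 and a dashed line at the median of all measured genes. The subunits span a narrower range than the mitochondrial ribosome, which has the highest median, 1.17.

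Markers of several cell types differed between the libraries as well, among them the enterocyte markers Sis and Lct, as given above. Their reads are given unscaled, with more reads in total for dKO-labelled than for control, as above. Crypt stem cell markers had 47 and 133 reads over 5 genes, with Olfm4 at 0 in the control, and Slc12a2 alone passed the filter (39 and 70 reads). After scaling all 5 were higher in the dKO-labelled library, as were 75.4% of all measured genes. Proliferation markers had 119 and 237 reads over 8 genes, all higher after scaling, of which 2 passed the filter, Mki67 (12 and 32) and Pcna (83 and 124). Fibroblast markers had 22 and 186 reads over 5 genes in the table, with Dcn at 0 in both, and smooth muscle markers 36 and 170 over 5 genes, with Myh11 at 0 in the control. Paneth cell markers had 1171 and 2232 reads over 5 genes, and immune markers 62 and 98 over 6, with Ptprc at 0 in both. Goblet cell markers had 4450 and 3493 reads over 6 genes. Their sum was lower through Muc2 (1155 and 671) and Fcgbp (1872 and 1031), while the other 4 had more dKO-labelled than control reads, 3 of them also after scaling. Endothelial markers had 52 and 20 reads over 4 genes, with Cdh5 at 0 in the control. Without Tie1 (48 and 5 reads) they had 4 and 15. The erythroid marker Alas2 had 0 reads in both. The part of these cell types in the ribosomal protein ratios was not tested.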

How the data were processed

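The members, lists and comparisons were chosen with earlier results of these data known. The submitters' processing notes name TopHat, DESeq and the build mm9, and no source used here gives the counting tool or strand setting. The deposited signal values are normalised counts per RefSeq transcript (DESeq base means, per the file headers). All values (100%) are whole multiples of the smallest of their column, 1.0533 and 0.9494, within 0.001 of a step, and none is 0, so reads were recovered as steps minus 1, an inference from the values. No test of genotype with replicates was possible with 1 library each. The deposited fold (ratio) and log2 columns compare the 2 signal columns, and the p-values that the authors deposited are DESeq's, unadjusted.

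The log2 ratio is log2((dKO + 1)/(control + 1)) of normalised counts. Measured genes have a mean of at least 20. Fold values are ratios of recovered reads times 0.901, the worth of a dKO read over a control read, with 95% exact Clopper-Pearson intervals. With 1 library per group, genes were called by size. Named were the 6 highest and 6 lowest members, the 3 with the highest mean per subunit, the stalk genes, Rpsa, Fau, Rps27a, Rpl5, Rpl11, paralog pairs, and up to 4 genes per related list with the largest absolute ratio. Others, such as those named by role, were chosen after their values were seen. Lengths are of GENCODE M21 transcripts paired with the RefSeq identifier. Both references are GRCm38, not mm9, and promoter coordinates are GRCm38.p6. TMM and upper-quartile scaling used edgeR 4.0.16 in R 4.3.3, and the rest was done in Python 3.11.15 (numpy 2.4.6, pandas 2.3.3, scipy 1.17.1, matplotlib 3.10.9, Biopython 1.88). Functions were tested on simulated data. A few genes are not reported singly here and are left out of the plot of single ratios, while sums, counts and medians hold them.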

Additional observations from a re-analysis of the deposited data

How the results depend on the processing

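No paired analysis was possible because each genotype had 1 library, which also leaves no replicate to leave out. Scaling set the absolute size of the ratios. With total counts, the upper quartile, TMM and the median of measured genes set to 0, members at least 2-fold higher numbered 3, 0, 1 and 1 instead of 18 (backgrounds of 16.3%, 8.06%, 11.2% and 11.8%). Their median log2 ratio became 0.51, 0.12, 0.30 and 0.30, that of the small subunit 0.47, 0.074, 0.25 and 0.26, and that of the large subunit 0.59, 0.19, 0.37 and 0.38. These scalings moved the median of measured genes by -0.30, -0.71, -0.53 and -0.51, and the members' median stayed 0.30 to 0.32 above it. That distance was 0.70 with no filter on the mean and 0.48 when the mean had to reach 100, and the large-subunit median was 0.83 with no filter.

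Higher members numbered 56 at 1.5-fold (background 45.9%), 6 with the counting interval beyond 2-fold (10.4%), 44 with the interval above the median ratio and 2 below it, and 68 by an exact binomial test of the reads (Benjamini-Hochberg adjusted, 50.1%), which was added after seeing the data and compares the 2 libraries alone. Calls by interval or by test depend on read depth, in which members and background differ. The Spearman correlation with the control level was 0.0043 with no filter, where 15 genes of few reads enter. The Spearman correlation with coding length became 0.18 with transcript length. The share of reads was 2.42% and 3.48% without paralog-type members, and 2.58% and 3.63% with the 14 genes among the 10 with most reads in either library left out of the total. A pseudocount of 5 or none, summed rows, the added read removed, and, added after seeing the data, leaving out X-linked members or Rps4l kept each count within 1.5 times and each median and correlation within its tolerance. Relations with coding length were also described after seeing the data.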
